A study of Homo sapiens with 6 samples.

Results

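The 10 genes of pyroptosis described here were taken by gene symbol from a table of read counts with 65746 symbols, and each of the 10 matched 1 entry. They are the gasdermin genes GSDMD and GSDMB, the caspase genes CASP1 and CASP4, the adaptor gene PYCARD, the sensor genes CARD8, NLRP1 and ZBP1, the protease gene DPP9, and NINJ1, whose product ruptures the plasma membrane. Treated cells had received 100 nM erianin for 24 h (3 libraries), and the control cells DMSO, the solvent, for the same 24 h (3 libraries). Both groups were wild-type SU-DHL-8, a single established line of human diffuse large B-cell lymphoma, so the values hold for 1 line, 1 dose and 1 time. Erianin is a bibenzyl from Dendrobium orchids that is described as binding tubulin, and the series title names pyroptosis through GSDMD.

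Pyroptosis is a lytic form of cell death. A sensor such as NLRP1, CARD8 or NLRP3 recruits caspase-1, through PYCARD where its domain requires it, and caspase-1 cleaves GSDMD and the cytokine precursors of IL-1β and IL-18. Caspase-4 binds bacterial lipopolysaccharide and cleaves GSDMD as well. The freed amino-terminal part of GSDMD forms pores, NINJ1 then breaks the membrane, and ESCRT proteins can remove damaged membrane. DPP9 holds NLRP1 and CARD8 inactive, and inhibition of DPP8 and DPP9 is known to set off CARD8 in lymphoid and myeloid cells. Cleavage is a protein event that read counts do not measure.

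The line carried B cell transcripts. CD79A, part of the B cell receptor, had 563 to 643 CPM (counts scaled to library size by edgeR's TMM method) with erianin, against 447 to 453 CPM with DMSO. PAX5, the B cell transcription factor, had 405 to 430 CPM with erianin, against 777 to 933 CPM with DMSO. The 4 T cell markers summed to at most 0.171 CPM with erianin, against at most 0.0308 CPM with DMSO. Total counts per library were 30956443 to 35588728. By total counts without TMM scaling, 3 counts, the floor used here, thus equal 0.0843 to 0.0969 CPM (counting error only). DMSO replicate 1 stood apart. Paired with DMSO replicate 2 or 3 it gave a biological coefficient of variation of 0.290 or 0.294, whereas pairs of erianin libraries gave 0.0336 to 0.0815 and the pair of DMSO replicates 2 and 3 gave 0.0381. Each member is therefore given with that library and without it.

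The members differed widely in deposited TPM. Different genes are compared within a library in TPM, the authors' values scaled by library and by gene length. The length used for them is not given, and they did not follow the transcript lengths used here. In erianin replicate 1, GSDMD and the Rag GTPase gene RRAGA had 45.1 and 48.5 CPM, but 10.9 and 159 TPM. Their longest transcripts have 3462 and 1589 bases. The order and percentiles below therefore describe the deposited TPM alone and are not read as levels per length. NINJ1 had the highest TPM of the 10 members in each of the 6 libraries, DPP9 the next and ZBP1 the lowest. NINJ1 lay at 58.7 to 68.8 TPM with erianin and 43.4 to 67.3 TPM with DMSO, which placed it at percentile 88.5 to 90.3 among genes with a count. DPP9 lay at 19.3 to 20.3 TPM with erianin and 11.7 to 20.6 TPM with DMSO.

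PYCARD (11.3 to 13.99 TPM with erianin, 6.53 to 16.3 TPM with DMSO), GSDMD (10.2 to 11.1 TPM with erianin, 4.49 to 15.9 TPM with DMSO) and CASP4 (9.46 to 10.2 TPM with erianin, 7.10 to 10.2 TPM with DMSO) formed the middle of the order. Within libraries the TPM order PYCARD, GSDMD, CASP4 held in 5 of 6. By CPM, which takes no account of length, PYCARD (at most 11.3 CPM) lay below these 2 and CARD8 in every library. GSDMD had at least 29.7, CASP4 at least 22.0 and CARD8 at least 56.5 CPM. The TPM order thus rests on the length used. GSDMD lay within 1 TPM of PYCARD in erianin replicate 1 and DMSO replicates 2 and 3, but not in erianin replicates 2 and 3 or DMSO replicate 1. GSDMD had rank 4 in 5 libraries and rank 5 in DMSO replicate 1, where CASP4 came ahead of both PYCARD and GSDMD. CARD8 (4.92 to 5.59 TPM with erianin, 3.90 to 4.82 TPM with DMSO) stood above CASP1 (3.82 to 4.31 TPM with erianin, 2.99 to 3.88 TPM with DMSO) in every library. GSDMB followed with 1.52 to 2.02 TPM with erianin and 0.903 to 1.47 TPM with DMSO.

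NLRP1, the sensor that shares its mode of activation with CARD8, was low in TPM, with 0.611 to 0.798 TPM with erianin and 0.405 to 0.596 TPM with DMSO. By CPM it was near PYCARD, with 7.70 to 10.0 CPM with erianin, against 7.56 to 9.32 CPM for PYCARD. ZBP1 was lowest, with 0.369 to 0.536 TPM with erianin and 0.112 to 0.144 TPM with DMSO, at percentile 12.6 to 23.5 among genes with a count. The TPM of DMSO replicate 1 summed to 39.2% of the full TPM scale, against 63.6% to 66.7% in the other libraries, so TPM serves here for the order within a library, and fold changes on TPM scales are given only as alternatives. The plot of TPM by member shows this order.

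**Figure D1:**
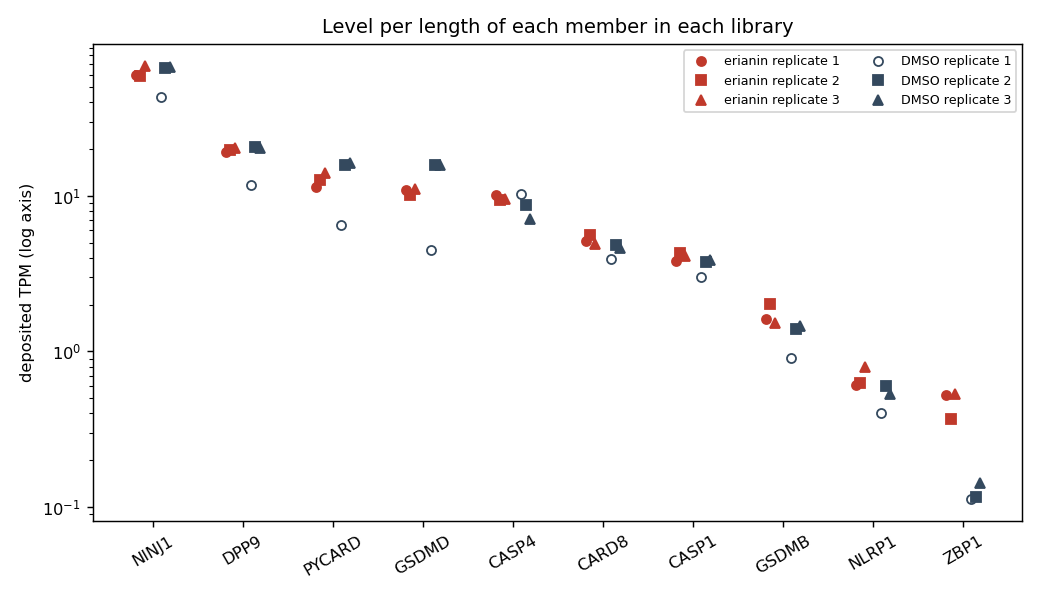
Deposited TPM (log axis) of the 10 members, one point per library, erianin in red and DMSO in dark blue, with DMSO replicate 1 as an open circle. The gene length behind these TPM is not given. NINJ1 is highest and ZBP1 lowest in all 6 libraries, and the open circle lies below both other DMSO points for 9 members, CASP4 being the exception.

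Of the 10 members, 1 rose (ZBP1) and 0 fell with erianin in the test over all 6 libraries (edgeR quasi-likelihood test, Benjamini-Hochberg adjusted p below 0.05 over 11550 genes). Among all genes tested, 24.2% were called, 11.8% higher and 12.3% lower, and 1 of 10 members is no excess over that share. The counts at an unadjusted p below 0.05 were also 1 and 0, in edgeR, DESeq2 and limma-voom alike. Without DMSO replicate 1, 2 members rose (ZBP1, CASP4) and 2 fell (GSDMD, PYCARD), where 55.3% of all genes were called, 27.8% higher and 27.4% lower. With GC and length offsets 1 rose (ZBP1) and 1 fell (PYCARD), where 36.1% of all genes were called, 18.0% higher and 18.2% lower. The median log2 fold change over the 10 members was -0.06 with all 6 libraries and 0.06 without that library, beside -0.003 and 0.029 over all genes tested.

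GSDMD is the gasdermin that caspase-1 and caspase-4 cleave to form the pore (ENSG00000104518, GRCh38 chromosome 8, 143553207 to 143563062, plus strand). It had 45.1, 41.0 and 45.7 CPM in erianin replicates 1, 2 and 3, against 29.7, 68.1 and 67.5 CPM in DMSO replicates 1, 2 and 3. The erianin values lay between the low value of DMSO replicate 1 and the higher pair of the other DMSO libraries, so the groups overlapped. GSDMD averaged 43.9 ± 2.53 CPM with erianin and 55.1 ± 22.0 CPM with DMSO (SD, n = 3 each), and was not called (log2 fold change -0.33 ± 0.29 SE, 95% interval -1.01 to 0.36, edgeR adjusted p = 0.46). Without DMSO replicate 1 it fell, by 0.61 on the log2 scale (95% interval -0.76 to -0.46, edgeR adjusted p = 1.4e-07), and all 3 erianin libraries lay below DMSO replicates 2 and 3. With all 6 libraries and the GC and length offsets it was not called (-0.38, edgeR adjusted p = 0.14). In bulk RNA, fewer expressing cells and less RNA per cell cannot be told apart.

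GSDMB (ENSG00000073605, chromosome 17, 39904595 to 39919854, minus strand) is a gasdermin cleaved by granzyme A. It had 6.63, 8.03 and 6.20 CPM with erianin and 5.88, 5.85 and 6.21 CPM with DMSO in replicates 1, 2 and 3. Erianin replicates 1 and 2 were above every DMSO library and replicate 3 was level with the highest of them. The log2 fold change was 0.22 (95% interval -0.13 to 0.56, edgeR adjusted p = 0.32), and without DMSO replicate 1 it was 0.22 (95% interval -0.08 to 0.52, edgeR adjusted p = 0.21). Of the other gasdermin genes, GSDMA had 3 counts and GSDMC 2 counts over all 6 libraries. GSDME and PJVK were listed at 0. Both carried other symbols in the past (DFNA5 and DFNB59, which the table does not list), and 2 other renamed genes picked after their values were seen, SELENOT and TMEM94, were also listed at 0, so a 0 for GSDME or PJVK is not read as a level.

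PYCARD (ENSG00000103490, chromosome 16, 31201485 to 31203450, minus strand) is the adaptor that joins pyrin-domain sensors to caspase-1. It had 7.56, 8.20 and 9.32 CPM in erianin replicates 1, 2 and 3, against 6.96, 11 and 11.3 CPM in DMSO replicates 1, 2 and 3. As for GSDMD, the erianin values were above that of DMSO replicate 1 and below the other pair. PYCARD was not called with all 6 libraries (log2 fold change -0.22, 95% interval -0.70 to 0.26, edgeR adjusted p = 0.47). It fell without DMSO replicate 1 (-0.40, 95% interval -0.65 to -0.15, edgeR adjusted p = 0.0069). It also fell with all 6 libraries once smooth trends in GC content and transcript length were taken out of each library (-0.33, edgeR adjusted p = 0.031). That call ended when a replicate block was added to these offsets (-0.33, edgeR adjusted p = 0.092). PYCARD shares 991 of 1661 exonic bases with PYCARD-AS1 on the opposite strand, which was listed at 0 counts, and whether counting used strand is not given in the sources used here. Nor is the annotation release, so the 0 for PYCARD-AS1 is not read as a level.

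CASP1 (ENSG00000137752, chromosome 11, 105025443 to 105035250, minus strand) encodes the inflammasome caspase. It had 12.1, 13.3 and 12.9 CPM in erianin replicates 1, 2 and 3, and 15.1, 12.3 and 12.8 CPM in DMSO replicates 1, 2 and 3. The groups overlapped, DMSO replicate 1 being highest (log2 fold change -0.07, 95% interval -0.37 to 0.23, edgeR adjusted p = 0.74). Without that library the fold change was 0.04 (95% interval -0.18 to 0.26, edgeR adjusted p = 0.77). CARD16, a near copy of the CASP1 recruitment domain whose reads can be confused with it, had 3.72 ± 0.523 CPM with erianin and 3.79 ± 1.17 CPM with DMSO (edgeR adjusted p = 0.95).

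CASP4 (ENSG00000196954, chromosome 11, 104942866 to 104969436, minus strand) encodes the lipopolysaccharide-binding caspase. It had 30.4, 27.6 and 28.6 CPM with erianin and 48.8, 26.96 and 22.0 CPM with DMSO in replicates 1, 2 and 3. DMSO replicate 1 was the highest library, while the other DMSO libraries lay below all 3 erianin libraries. The log2 fold change was -0.17 with all libraries (95% interval -0.82 to 0.47, edgeR adjusted p = 0.69). Without DMSO replicate 1 it was 0.25 and called (95% interval 0.06 to 0.44, edgeR adjusted p = 0.024). With the GC and length offsets and that library left out it was 0.15 and not called (edgeR adjusted p = 0.14). CASP5, the neighbour with the same role, had 9 counts in all.

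**Figure D2:**
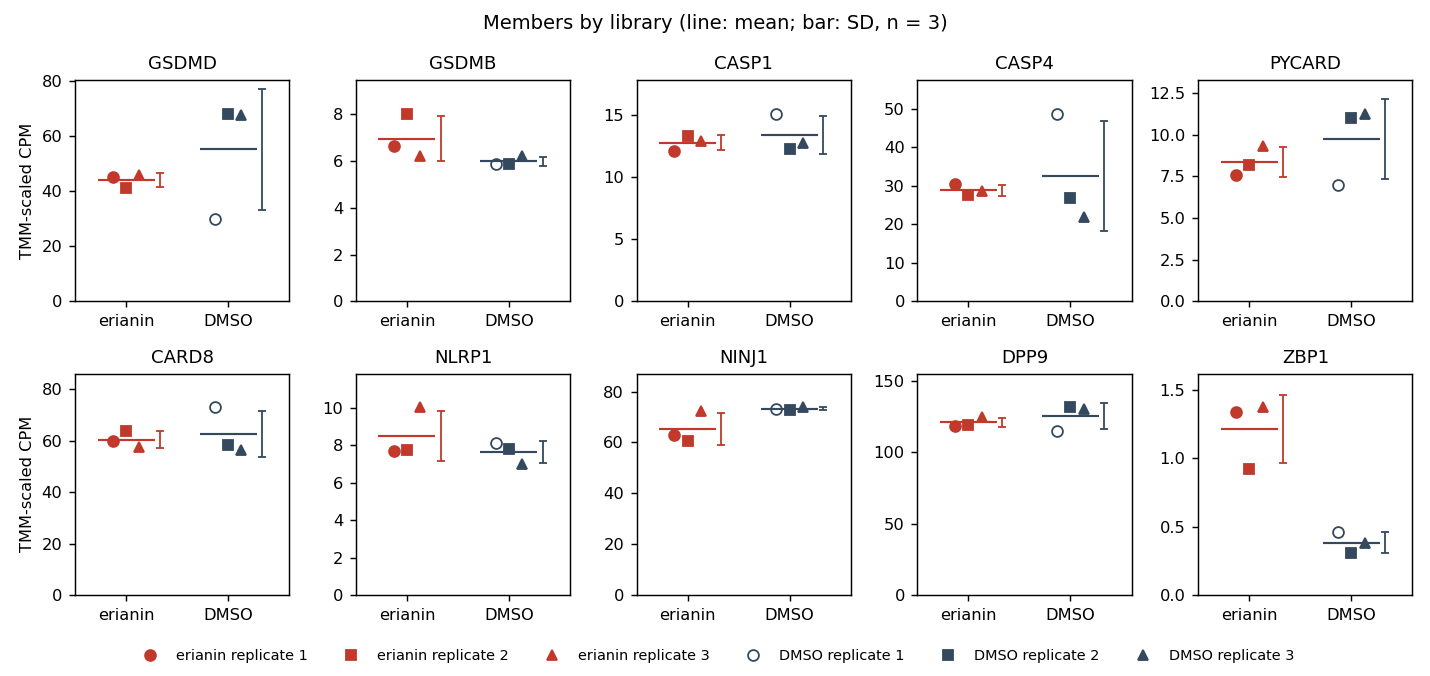
TMM-scaled CPM of the 10 members, one panel each, with erianin libraries in red on the left and DMSO libraries in dark blue on the right; lines are means and bars SD (n = 3), and DMSO replicate 1 is the open circle. The open circle is lowest for GSDMD, PYCARD and DPP9 and highest for CASP4, CASP1 and CARD8, and the groups are apart for ZBP1 and NINJ1.

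DMSO replicate 1 departed from the other DMSO libraries in step with base composition. Over 11404 tested genes, the log2 ratio of DMSO replicate 1 to the mean of DMSO replicates 2 and 3 had a median of 0.353 in the decile of lowest GC content and -0.512 in the decile of highest GC content (Pearson's r across genes -0.52, genes not being independent replicates). GSDMD, whose longest GENCODE 29 transcript has 64.8% GC, had a ratio of -1.19. PYCARD (61.7% GC) had -0.68.

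CASP4 (38.3% GC) had a ratio of 0.99. CARD8 (40.3% GC) had 0.34. Over the 10 members r was -0.79, as a description. GSDMD and PYCARD were thus lower, and CASP4 and CARD8 higher, in DMSO replicate 1. Other members rich in GC departed less or the other way: DPP9 (59.7% GC) had -0.19, NINJ1 (57.2% GC) 0.0 and NLRP1 (55.1% GC) 0.14. GSDMD lay below the lower quartile of the decile of highest GC content (-0.856). CASP4 lay above the upper quartile of the decile of lowest GC content (0.597). ZBP1 (57.1% GC, ratio 0.41) lay above the middle of the genes with like GC content, from 14 counts.

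The opening 150 coding bases show the contrast between PYCARD, which is rich in G and C and was low in DMSO replicate 1, and CASP4, which is poor in them and was high there. They are read 5′ to 3′ on the coding strand from GENCODE 29 transcripts (GRCh38), and capitals mark G and C.
PYCARD: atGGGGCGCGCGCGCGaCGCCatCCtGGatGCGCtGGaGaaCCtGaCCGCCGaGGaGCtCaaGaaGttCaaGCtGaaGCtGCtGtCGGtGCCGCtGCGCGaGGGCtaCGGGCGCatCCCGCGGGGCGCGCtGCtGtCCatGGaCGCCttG
CASP4: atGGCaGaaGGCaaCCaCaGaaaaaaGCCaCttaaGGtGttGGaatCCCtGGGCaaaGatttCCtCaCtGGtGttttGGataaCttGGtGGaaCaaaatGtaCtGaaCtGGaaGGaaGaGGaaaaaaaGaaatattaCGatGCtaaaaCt
The PYCARD bases (chromosome 16, 31202541 to 31202690, minus strand) hold 69.3% G and C, and its whole coding sequence of 585 bases 65.5%. The CASP4 bases, which cross an intron (chromosome 11, 104954859 to 104968525, minus strand), hold 40.0%, and its coding sequence of 1131 bases 46.2%.

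**Figure D3:**
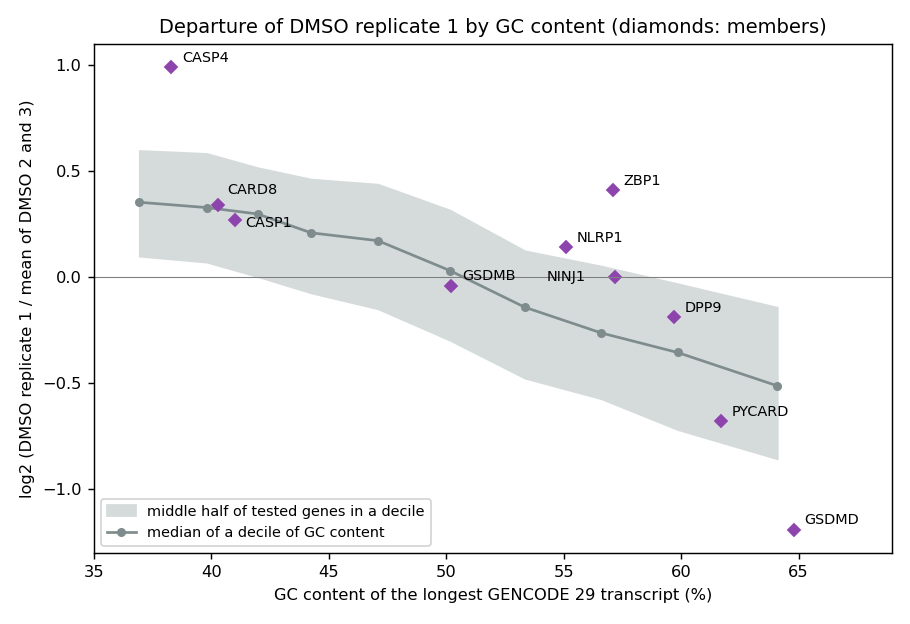
GC content (%) of the longest transcript against the log2 ratio of DMSO replicate 1 to the mean of DMSO replicates 2 and 3; the line joins medians over deciles of tested genes, the band spans their quartiles, and diamonds are the 10 members. The medians go from 0.353 at low GC content to -0.512 at high GC content, with CASP4 at 0.99 and GSDMD at -1.19.

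ZBP1 (ENSG00000124256, chromosome 20, 57603846 to 57620576, minus strand), a sensor of Z-form nucleic acids that is induced by interferon in many cells, was the member called higher. It had 1.34, 0.924 and 1.37 CPM in erianin replicates 1, 2 and 3 (49, 32 and 48 counts), against 0.460, 0.308 and 0.382 CPM in DMSO replicates 1, 2 and 3 (14, 10 and 13 counts). Every erianin library was above every DMSO library, and the mean was 3.16 times as high with erianin. The log2 fold change was 1.65 ± 0.29 SE (95% interval 0.97 to 2.34, edgeR adjusted p = 0.0089), and without DMSO replicate 1 it was 1.81 (95% interval 1.02 to 2.60, edgeR adjusted p = 0.00027). The call ended without erianin replicate 1 (1.59, edgeR adjusted p = 0.052), and ZBP1 is not tested under a filter of 1 CPM in 3 libraries.

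The partners of ZBP1 in necroptosis, a related lytic death, were mostly present but not called with all 6 libraries. The kinase gene RIPK3, which ZBP1 binds, had 5 counts over all 6 libraries and at most 2 in any, under the floor. MLKL, which RIPK3 phosphorylates, had 6.58 ± 1.49 CPM with erianin and 6.10 ± 0.905 CPM with DMSO (SD, n = 3 each, edgeR adjusted p = 0.73). ADAR, the RNA editor that limits ZBP1 activation, had 494 ± 11.3 CPM with erianin and 460 ± 77.8 CPM with DMSO (edgeR adjusted p = 0.61), and rose without DMSO replicate 1 (log2 fold change 0.26, edgeR adjusted p = 0.00043). Of these 4 tested partners, 0 were called in either direction, and 0 had an unadjusted p below 0.05 in edgeR, DESeq2 or limma-voom. With that library left out, ADAR was called higher and FADD, the death-domain adaptor, lower (-0.36, edgeR adjusted p = 0.0035). Of all genes, 24.2% were called with all 6 libraries and 55.3% without DMSO replicate 1.

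Beside ZBP1, the 5 markers of macrophages and monocytes summed to 9.42 to 10.6 CPM with erianin, against 4.30 to 7.27 CPM with DMSO, LYZ giving 7.28 to 8.63 CPM with erianin and 4.20 to 7.06 CPM with DMSO. CD14 had 1.56 to 1.6 CPM with erianin and at most 0.265 CPM with DMSO. ITGAM and FCGR3A were at 0 in all 3 DMSO libraries and at most 0.164 and 0.0578 CPM with erianin. They had only 10 and 5 counts over all 6 libraries, FCGR3A being under the floor and ITGAM near it, so no difference is read from them. None of the 5 was at 0 in all libraries, and their part in the change of ZBP1, or in that of the sensor gene NLRC4 given further on, was not tested.

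CARD8 (ENSG00000105483, chromosome 19, 48180770 to 48255946, minus strand) is a sensor held by DPP9. It had 59.8, 63.8 and 57.4 CPM with erianin and 72.9, 58.5 and 56.5 CPM with DMSO in replicates 1, 2 and 3. The groups overlapped, with DMSO replicate 1 highest (log2 fold change -0.05, 95% interval -0.35 to 0.25, edgeR adjusted p = 0.80). Without that library the value for CARD8 was 0.08 (95% interval -0.07 to 0.23, edgeR adjusted p = 0.35). CARD8 shares 313 of 12912 exonic bases with ZSWIM9 on the opposite strand, listed at 0 counts. As for PYCARD-AS1, this 0 is not read as a level.

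NLRP1 (ENSG00000091592, chromosome 17, 5499427 to 5619424, minus strand) had 7.70, 7.74 and 10.0 CPM with erianin and 8.15, 7.79 and 7.0 CPM with DMSO. Only erianin replicate 3 was above every DMSO library (log2 fold change 0.15, 95% interval -0.21 to 0.52, edgeR adjusted p = 0.52). The NLRP1 value without DMSO replicate 1 was 0.21 (95% interval -0.08 to 0.50, edgeR adjusted p = 0.21). DPP9 (ENSG00000142002, chromosome 19, 4675224 to 4724673, minus strand) is the inhibitor of both sensors. It had 119, 120 and 125 CPM with erianin and 115, 132 and 130 CPM with DMSO. Its erianin values lay within the DMSO range (log2 fold change -0.05, 95% interval -0.29 to 0.18, edgeR adjusted p = 0.74), and without DMSO replicate 1 the value was -0.10 (95% interval -0.23 to 0.03, edgeR adjusted p = 0.17). DPP9 shares 1528 of 8324 exonic bases with DPP9-AS1 on the opposite strand, listed at 0 counts, again not read as a level.

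NINJ1 (ENSG00000131669, chromosome 9, 93121489 to 93134288, minus strand) had 62.7, 60.4 and 72.4 CPM in erianin replicates 1, 2 and 3, against 73.1, 72.7 and 73.8 CPM in DMSO replicates 1, 2 and 3. All 3 erianin libraries were below all 3 DMSO libraries, replicate 3 by a small margin. The change was not called (log2 fold change -0.17 ± 0.11 SE, 95% interval -0.42 to 0.08, edgeR adjusted p = 0.30), nor was it without DMSO replicate 1, at -0.16 (95% interval -0.31 to 0.00, edgeR adjusted p = 0.091). With NINJ1 below and ZBP1 above, 2 of 10 members had no overlap between groups, against 46.8% of all genes tested. The 95% intervals of CASP1, CARD8, DPP9, NINJ1, GSDMB and NLRP1 with all libraries lay within -0.42 to 0.56 on the log2 scale.

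**Figure D4:**
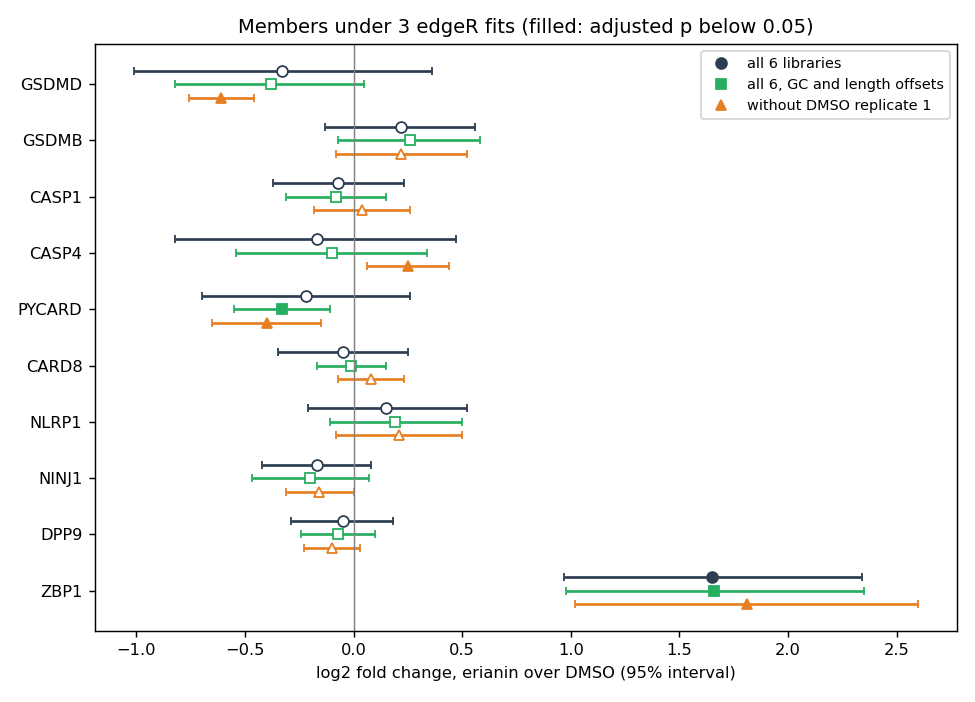
Log2 fold change of erianin over DMSO for the 10 members with 95% intervals, under 3 edgeR fits: all 6 libraries (circles), the same with GC and length offsets (squares), and without DMSO replicate 1 (triangles); filled symbols have an adjusted p below 0.05. ZBP1 is called in all 3 fits, PYCARD in 2, GSDMD and CASP4 only without DMSO replicate 1, and the other 6 members in none of the 3.

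Among the genes whose levels followed GSDMD most closely over the 6 libraries, by Pearson's r of log2(CPM + 1) among 7846 other genes of at least 10 CPM, were SNHG15, a non-coding RNA, CDK4, a cell cycle kinase, NCAPH2, a condensin subunit, and IL12RB1, a cytokine receptor (0.998 each). In all, 683 of these genes had an r above 0.9, over 6 points of which DMSO replicate 1 is 1 extreme. Among the members, DPP9 (0.953) and PYCARD (0.937) followed GSDMD, while CASP4 (-0.862) and CARD8 (-0.857) ran opposite to it.

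Around the members, 77 pathway genes in 8 lists, the 10 members included, were counted by role. Of these 77, 52 were tested, 14 were below the filter on low counts, and 11 were listed at 0 in all libraries. With all 6 libraries 6 rose and 4 fell (42 were not called), and without DMSO replicate 1 17 rose and 11 fell. As shares, both counts stand near those of all genes given above. The 10 genes called with all 6 libraries were also called, in the same direction, without DMSO replicate 1. The median log2 fold change of the 52 was 0.00, and 0.12 without DMSO replicate 1.

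Of the other sensor genes, AIM2, IFI16, NLRP6, NLRC4 and NAIP were tested. NLRP3, the best-studied inflammasome sensor, and NLRP7 were listed at 0 in all 6 libraries, NLRP2 had 2 counts and NLRP12 had 4. AIM2, the sensor of cytosolic DNA, was present, with 9.97, 9.68 and 8.86 CPM in erianin replicates 1, 2 and 3, against 6.83, 7.95 and 8.59 CPM in DMSO replicates 1, 2 and 3. The AIM2 groups did not overlap, and the change was not called (log2 fold change 0.29, edgeR adjusted p = 0.17). IFI16, a DNA sensor and the most abundant sensor gene by CPM, had 286, 273 and 238 CPM with erianin and 603, 289 and 277 CPM with DMSO in replicates 1, 2 and 3. DMSO replicate 1 stood far above the rest, the groups overlapped, and IFI16 was not called (-0.55, edgeR adjusted p = 0.21), nor without that library (-0.08, edgeR adjusted p = 0.35). With the GC and length offsets and that library left out, IFI16 was called lower (-0.19, edgeR adjusted p = 0.00021). NLRC4, a sensor of bacterial flagellin with NAIP, had 21, 14 and 16 counts with erianin and 0, 2 and 9 counts with DMSO. It was not called with all libraries by edgeR (adjusted p = 0.077), was called higher with them by DESeq2 (adjusted p = 0.033) and limma-voom (adjusted p = 0.045), and was called higher by edgeR without DMSO replicate 1 (log2 fold change 1.53, edgeR adjusted p = 0.025). NLRP6, a sensor best known from the gut, had 2.63 ± 0.627 CPM with erianin and 3.10 ± 1.23 CPM with DMSO (SD, n = 3 each), and was lower without DMSO replicate 1 (-0.52, edgeR adjusted p = 0.032).

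Of the 12 tested genes for sensors and their regulators, 2 rose (TXNIP and ZBP1), 0 fell and 10 were not called. Of all genes, 24.2% were called in that fit. At an unadjusted p below 0.05, 3 were higher and 1 was lower in edgeR, and DESeq2 and limma-voom each called 3 higher, NLRC4 being the third, and 0 lower. TXNIP, a thioredoxin-binding protein that is described as an activator of NLRP3, had 226, 222 and 207 CPM with erianin and 40.4, 46.7 and 43.9 CPM with DMSO. It rose (log2 fold change 2.32 ± 0.11 SE, edgeR adjusted p = 0.00021), and kept the call with any 1 library left out (edgeR adjusted p up to 0.0061). TXNIP was not tested with the GC and length offsets, because its deposited Ensembl identifier had no match in the annotation used. DPP8, the close relative of DPP9, had 41.4 ± 4.0 CPM with erianin and 52.8 ± 7.85 CPM with DMSO (SD, n = 3 each). It was not called with all libraries (log2 fold change -0.35, edgeR adjusted p = 0.11), and fell with them once the GC and length offsets were used (-0.23, edgeR adjusted p = 0.045) and without DMSO replicate 1 (-0.21, edgeR adjusted p = 0.034).

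The genes of the cytokines that caspase-1 matures, IL1B and IL18, were near or at 0, as was IL1A. IL1B was listed at 0, IL18 had 2 counts and IL1A 3 counts over all 6 libraries, and the receptor genes IL18R1 and IL18RAP were listed at 0. IL18BP, which neutralises IL-18, had 21.4, 22.1 and 24.3 CPM with erianin and 22.0, 14.5 and 12.2 CPM with DMSO. DMSO replicate 1 reached the erianin values and the other DMSO libraries did not. IL18BP was not called with all libraries (edgeR adjusted p = 0.15) and rose without DMSO replicate 1 (log2 fold change 0.77, edgeR adjusted p = 6.4e-07). HMGB1, a nuclear protein released by lysed cells, had 1389 ± 83.0 CPM with erianin and 1125 ± 23 CPM with DMSO (SD, n = 3 each; log2 fold change 0.30, edgeR adjusted p = 0.061). It was called higher by DESeq2 (adjusted p = 0.007) and, by edgeR, without DMSO replicate 1 (0.33, edgeR adjusted p = 7.6e-05).

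Among adaptor, caspase and inhibitor genes, 1 of 7 tested rose and 0 fell, where 24.2% of all genes were called. At an unadjusted p below 0.05, 3 were higher and 0 lower in edgeR, DESeq2 and limma-voom alike, and DESeq2 called 2 higher. CASP8, the caspase of death receptors, which can also cleave GSDMD, had 44.1, 43.4 and 39.9 CPM in erianin replicates 1, 2 and 3, against 29.4, 22.3 and 23.1 CPM in DMSO replicates 1, 2 and 3. All erianin libraries were above all DMSO libraries (log2 fold change 0.77 ± 0.14 SE, edgeR adjusted p = 0.0087). The CASP8 call ended without erianin replicate 1 or 2 (edgeR adjusted p = 0.054 each). SERPINB1, an inhibitor of inflammatory caspases, rose without DMSO replicate 1 (0.25, edgeR adjusted p = 0.015).

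Of 9 genes for GSDMD expression and modification, 2 rose, 2 fell and 5 were not called, where 24.2% of all genes were called. IRF2, a transcription factor known to drive GSDMD transcription, had 68.2, 70.1 and 65.9 CPM in erianin replicates 1, 2 and 3, against 169.5, 106 and 99.5 CPM in DMSO replicates 1, 2 and 3. All erianin libraries were lower than all DMSO libraries, DMSO replicate 1 being the highest. IRF2 fell (log2 fold change -0.88 ± 0.21 SE, edgeR adjusted p = 0.022), also without DMSO replicate 1 (-0.58, edgeR adjusted p = 7.7e-08) and with the offsets (-0.86, edgeR adjusted p = 0.0074). Its call ended without any 1 erianin library (edgeR adjusted p up to 0.092).

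IRF1, the related interferon-induced factor, had 69.8, 69.98 and 75.3 CPM with erianin and 87.3, 100.1 and 102 CPM with DMSO in replicates 1, 2 and 3. The groups did not overlap, and IRF1 fell (log2 fold change -0.43 ± 0.11 SE, edgeR adjusted p = 0.027). ZDHHC9, a palmitoyltransferase reported to act on GSDMD, had 7.24, 7.54 and 7.72 CPM with erianin and 5.39, 4.04 and 4.26 CPM with DMSO, and rose (0.72 ± 0.16 SE, edgeR adjusted p = 0.017). RRAGC, a Rag GTPase of the complex that GSDMD needs to form pores in macrophages, had 9.24 ± 0.835 CPM with erianin and 5.14 ± 0.973 CPM with DMSO (SD, n = 3 each), and rose (0.85 ± 0.17 SE, edgeR adjusted p = 0.014). The calls of IRF1 and ZDHHC9 ended without any 1 library other than DMSO replicate 1 (edgeR adjusted p up to 0.14 and 0.079), and that of RRAGC without erianin replicate 1 or 2 (up to 0.072). IRF1 was also not called with upper-quartile scaling (edgeR adjusted p = 0.061), with total counts alone (0.060) or on either TPM scale (limma adjusted p = 0.70), nor was RRAGC on the log2(TPM + 0.1) scale (limma adjusted p = 0.056). LAMTOR2, of the Ragulator complex that carries the Rag GTPases, was lower without DMSO replicate 1 (-0.18, edgeR adjusted p = 0.035).

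Of 11 tested genes of membrane rupture and repair, 1 rose, 2 fell and 8, NINJ1 among them, were not called. The share of all genes called was 24.2%. CHMP2B, an ESCRT-III subunit, had 12.6, 12.9 and 10.6 CPM with erianin and 9.23, 7.64 and 7.03 CPM with DMSO, and rose (log2 fold change 0.60, edgeR adjusted p = 0.030). CHMP2A, its paralog, had 42.1, 46.5 and 48.5 CPM with erianin and 109, 67.0 and 65.4 CPM with DMSO, and fell (-0.81, edgeR adjusted p = 0.029). Without DMSO replicate 1, its highest library, the CHMP2A value was -0.52 (edgeR adjusted p = 2.3e-06). VPS4A, the ATPase that takes ESCRT-III apart, had 62.2, 62.0 and 67.8 CPM with erianin and 75.5, 92.1 and 93.8 CPM with DMSO, and fell (-0.45, edgeR adjusted p = 0.034).

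For each of these ESCRT genes the groups did not overlap. The call of CHMP2A ended with the offsets (log2 fold change -0.96, edgeR adjusted p = 0.056) and without any 1 erianin library (edgeR adjusted p up to 0.12). Those of CHMP2B and VPS4A ended without any 1 library other than DMSO replicate 1 (edgeR adjusted p up to 0.12 and 0.15). VPS4A was also not called with upper-quartile scaling (edgeR adjusted p = 0.075), with total counts alone (0.070) or on either TPM scale (limma adjusted p = 0.70), and CHMP2A not with total counts alone (edgeR adjusted p = 0.052). Without DMSO replicate 1, PDCD6IP, the ESCRT adaptor ALIX, was called higher (0.45, edgeR adjusted p = 4.4e-06) and CHMP3 lower (-0.26, edgeR adjusted p = 0.031). CHMP4B, the most abundant ESCRT gene of the list, had 255 ± 11.7 CPM with erianin and 287 ± 29 CPM with DMSO (edgeR adjusted p = 0.29).

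Guanylate-binding proteins coat bacterial surfaces and bring caspase-4 to lipopolysaccharide. GBP1 had 37.7, 35.2 and 36 CPM in erianin replicates 1, 2 and 3, against 31, 20.1 and 19.1 CPM in DMSO replicates 1, 2 and 3, with no overlap (log2 fold change 0.63, edgeR adjusted p = 0.051). Of 4 tested genes of this family 0 were called with all libraries by edgeR, 1 was higher at an unadjusted p below 0.05, and GBP1 was called higher by DESeq2 (adjusted p = 0.015), by limma-voom (adjusted p = 0.039) and by edgeR with the GC and length offsets (0.66, adjusted p = 0.0076). Without DMSO replicate 1, GBP1 (0.90, edgeR adjusted p = 2.3e-09), GBP2 (0.35) and GBP3 (0.58) were called higher, and GBP4 was not called (-0.04, edgeR adjusted p = 0.75). In that fit 55.3% of all genes were called, against 24.2% with all libraries.

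**Figure D5:**
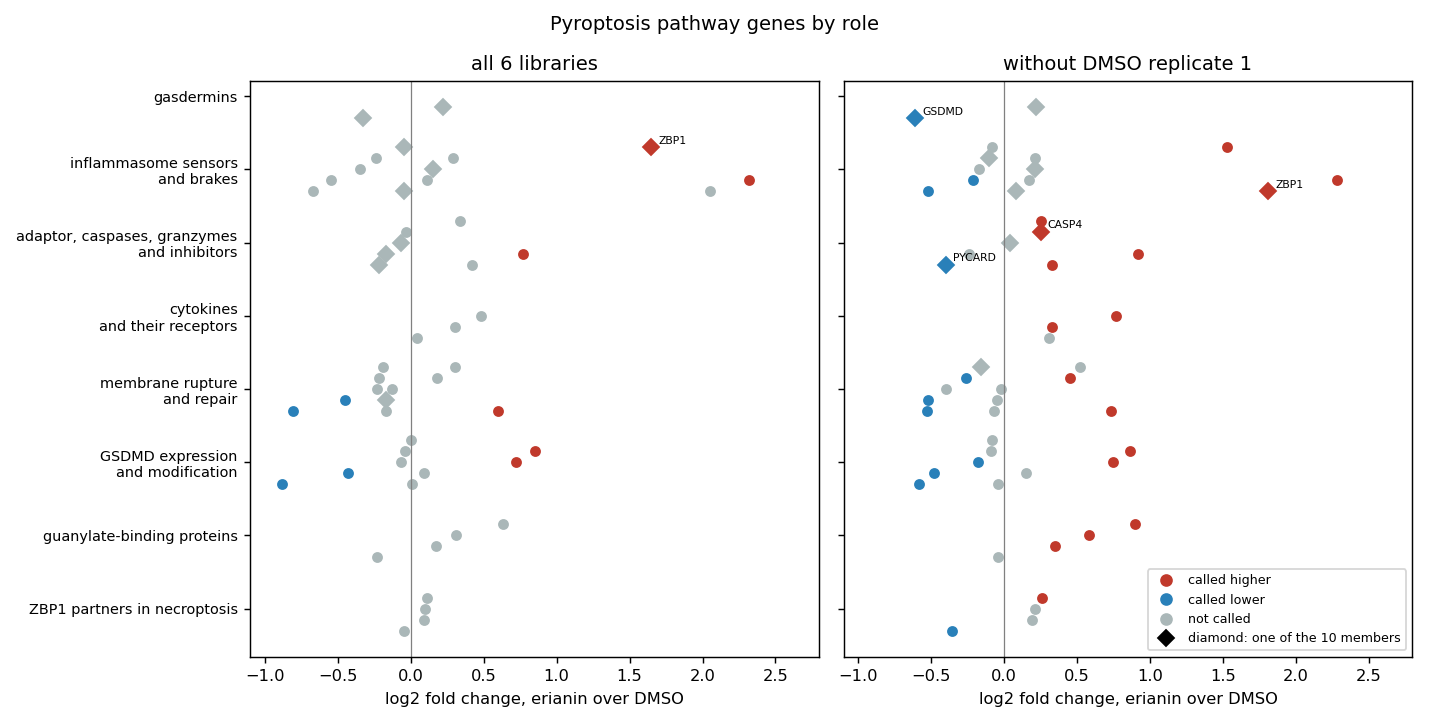
Log2 fold change of erianin over DMSO for the 52 tested pathway genes by role, with all 6 libraries (left) and without DMSO replicate 1 (right); red points were called higher, blue lower and grey not called, and diamonds are the 10 members, named where called. The left panel holds 6 higher and 4 lower calls and the right panel 17 and 11.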

How the data were processed

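The deposited values are raw read counts by gene symbol (whole numbers) and the authors' TPM, per the file headers. The build GRCh38 (hg38) and the tools StringTie 2.2.1, featureCounts 2.0.1, STAR 2.7.10 and fastp 0.23.2 appear, without roles, in the submitters' processing notes. For annotation release, strand and multi-mapping reads the entry is: not given in the sources used here. Groups and replicate numbers came from sample titles. Whether replicates were separate cultures is not said. The spread behind each p-value is then that of these samples and may be technical.

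Of 65807 entries, 61 repeats of a symbol were left out. edgeR 4.0.16 (R 4.3.3; TMM, filterByExpr, quasi-likelihood F test, treatment as the only term) tested 11550 genes. Each standard error is the absolute log2 fold change divided by √F. Alternatives were other scalings and filters, DESeq2 1.42.0, limma-voom (limma 3.58.1), log2(TPM + 1) and log2(TPM + 0.1), a replicate block, GC and length offsets (mgcv 1.9.3; 98.7% of tested genes), and each library left out. The block and the offsets were also used together. The fits were tested on simulated counts.

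The members and lists were chosen with earlier results of these data known. All 10 members are named. Pathway genes named are those called, called without DMSO replicate 1, most abundant, or at 0. AIM2, NAIP, CARD16, GBP4, MLKL and the genes below the filter were named outside that rule, after their values were seen. For likeness, the 5 genes with the highest correlation with GSDMD were picked. Some genes that these rules pick are not reported here. Annotation came from GENCODE 29 (GRCh38), which may differ from the release behind the counts.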

Additional observations from a re-analysis of the deposited data

How the results depend on the processing

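ZBP1 was called higher in 17 of 18 alternatives that tested it, and GSDMB had a positive log2 fold change in all 19. Members called higher numbered 1 with all 6 libraries, and 0 with the 1 CPM filter (ZBP1 untested) and 2 with GC and length offsets and DMSO replicate 1 left out. Members called lower numbered 0, against 1 with the offsets (PYCARD) and 2 with the offsets without DMSO replicate 1. Of all genes, 36.1% were called with the offsets. With DMSO replicate 1 left out as well, 3624 of 11626 genes were called higher and 3626 lower. Leaving out each library gave 0 to 2 members higher and 0 to 2 lower, where 407 to 3278 genes were called higher and 338 to 3227 lower.

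The GSDMD log2 fold change of -0.33 was -0.61 to -0.15 when each library was left out, -0.56 with the offsets without DMSO replicate 1 (edgeR adjusted p = 8e-08), 0.017 on the log2(TPM + 1) scale and 0.041 on the log2(TPM + 0.1) scale. The TPM scales moved the median of all genes to 0.20 and 0.28, and total counts alone moved it to 0.11. Relative to that median, GSDMD had -0.18 and -0.24 on the TPM scales and -0.32 with total counts. Signs that turned elsewhere, in that order of TPM scales, were CASP1 (0.17, 0.20), CASP4 (0.16, 0.18), PYCARD (0.06, 0.08), CARD8 (0.19, 0.22), NINJ1 (0.10, 0.10) and DPP9 (0.21, 0.22). Upper-quartile scaling and total counts alone turned CASP1 (0.02, 0.041), CARD8 (0.035, 0.06) and DPP9 (0.031, 0.06). Leaving out each library gave -0.13 to 0.04 for CASP1, -0.39 to 0.25 for CASP4 and -0.13 to 0.08 for CARD8, the positive ends being without DMSO replicate 1, and CASP4 had 0.15 with the offsets and that library left out. NLRP1 was called only with the offsets without DMSO replicate 1 (0.29, edgeR adjusted p = 0.041).

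Genes called higher (1368) numbered 3624 with the offsets without DMSO replicate 1 and 407 to 3278 when each library was left out. Genes called lower (1423) numbered 919 with total counts alone, 262 and 245 on the TPM scales, 3626 with the offsets without DMSO replicate 1, and 338 to 3227 when each library was left out. The split of calls, higher and lower, was thus 1368 and 1423, against 1840 and 919 with total counts alone, 1763 and 1093 with upper-quartile scaling, 1408 and 262 on the log2(TPM + 1) scale, and 1263 and 245 on the log2(TPM + 0.1) scale. Pathway genes called higher (6) numbered 10 with total counts alone and with DESeq2, 11 on the log2(TPM + 1) scale, 16 with the offsets without DMSO replicate 1, and 1 to 17 when each library was left out. Pathway genes called lower (4) numbered 2 with upper-quartile scaling, 1 with total counts alone, 2 on either TPM scale, 13 with the offsets without DMSO replicate 1, and 0 to 11 when each library was left out. Same-numbered deviations from group means correlated at 0.167, -0.143 and 0.231, and not every library correlated best with its own number. DMSO replicate 1 dominated the DMSO deviations, so these values cannot show whether replicates 2 and 3 were paired. Pairing by replicate number is therefore undecided. With the replicate block, 2 pathway genes were called lower, IRF1 (-0.42, adjusted p = 0.058) and VPS4A (-0.44, adjusted p = 0.057) losing their calls, and 1139 genes were called higher and 1157 lower. The block alone gave GSDMD -0.24 (adjusted p = 0.54) and changed no member's call. Used with the offsets, the block ended the PYCARD call that the offsets gave (-0.33, edgeR adjusted p = 0.092), and 0 members were called lower. The causes were not tested. At these depths 3 counts equal at most 0.0969 CPM by total counts without TMM scaling, so lower levels were not detectable.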
